A study of Mus musculus with 2 samples.

Results

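Mature migratory dendritic cells of neonatal mouse skin were described across genes in single-cell RNA libraries of live CD45+ leukocytes. They were taken as the barcodes with at least 2 Ccr7 UMIs, at least 1 Fscn1 UMI, at least 1% of UMIs in Cd74, H2-Aa, H2-Ab1 and H2-Eb1 together, and no UMI of Cd3d, Cd3e or Cd3g. A UMI is a molecular identifier that counts 1 captured transcript. This rule selected 162 of the 27589 barcodes kept for analysis, which were those with at least 200 genes and under 10% mitochondrial UMIs. The anti-Gr-1 library held 63 of them and the isotype library 99.

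The study treated wild-type C57BL/6 mice every other day between postnatal days 4 and 14, either with an antibody against Gr-1, given to deplete monocytes, or with an isotype control antibody. Skin was taken at postnatal day 15 and digested with collagenase, and the sorted cells of 4 to 7 mice were pooled per condition. Each condition is therefore 1 library with no replicate, so no difference between the libraries could be tested, and values are given with 95% intervals that cover counting error only. The deposited matrices held 9110 anti-Gr-1 barcodes with a median of 7463 UMIs and 21311 isotype barcodes with a median of 4460 UMIs. The libraries shared 61 barcode sequences.

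A dendritic cell that has taken up antigen in the skin can mature, leave through lymphatic vessels and present the antigen to T cells in the draining lymph node. Maturation switches on CCR7, the receptor for the lymphatic chemokines CCL19 and CCL21, and fascin (Fscn1), which bundles the actin of dendrites, while uptake receptors are lost and co-stimulatory molecules appear. In steady-state skin the same programme runs without infection and also brings on regulatory genes, and cells of the type 1, type 2 and Langerhans lineages converge on it.

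The selecting genes set the members apart by construction. The 63 anti-Gr-1 members held 2 to 141 Ccr7 UMIs, with a median of 33, and the 99 isotype members 2 to 104, with a median of 18. Fscn1 UMIs ran between 1 and 156 in anti-Gr-1 members, with a median of 36, and between 1 and 111 in isotype members, with a median of 17. Class II transcripts made up 1.18% to 10.3% of a member's UMIs in the anti-Gr-1 library and 1.06% to 12.7% in the isotype library. The members were deep, with a median of 16667 UMIs in the anti-Gr-1 library and 10978 in the isotype library, and 19 isotype members but no anti-Gr-1 member had under 5000 UMIs.

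Values just inside and outside the thresholds differed. Only 1 anti-Gr-1 member had exactly 2 Ccr7 UMIs, with Cacnb3 at 673 counts per 1000000 UMIs (CPM), while 12 isotype members did, with Cacnb3 at 8.60 CPM and Mgl2 at 2012 CPM. The barcodes with 1 Ccr7 UMI that met the rest of the rule numbered 13 in the anti-Gr-1 and 28 in the isotype library, with Cacnb3 at 29.8 and 63.9 CPM. A lack of Fscn1 kept out 47 anti-Gr-1 and 62 isotype barcodes, with Cacnb3 at 15.6 and 20.4 CPM. The class II limit kept out 23 anti-Gr-1 and 41 isotype barcodes, whose Cacnb3 stood at 796 and 983 CPM, close to the 818 and 791 CPM of members with 1% to 2% class II UMIs. Barcodes rich in Cacnb3 thus lay outside the class II limit, and isotype members poor in it lay just inside the Ccr7 limit.

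Members made up 0.783% of kept barcodes in the anti-Gr-1 library (exact binomial interval 0.602% to 1.001%) and 0.507% in the isotype library (0.412% to 0.616%), a ratio of 1.55 (1.11 to 2.14). With every barcode thinned to 2000 UMIs the ratio was 1.22 (0.846 to 1.76), over 52 of 7704 anti-Gr-1 and 80 of 14504 isotype barcodes, after 343 and 5038 shallower ones were left out. Without the limit on Cd3 transcripts, 90 anti-Gr-1 and 198 isotype barcodes met the rule and the ratio was 1.10 (0.851 to 1.42). Against the other dendritic cells of the skin the share was 6.35% of 992 anti-Gr-1 cells and 7.04% of 1407 isotype cells, a ratio of 0.903 (0.647 to 1.25), where the denominator holds the members and the type 2 and type 1 cells. That denominator differed as well. Type 1 cells were 4.05% of kept anti-Gr-1 and 1.33% of kept isotype barcodes, a ratio of 3.04 (2.58 to 3.60). Type 2 cells were 7.49% and 5.36%, a ratio of 1.40 (1.26 to 1.55). Cells with only female transcripts (Xist without Y-linked transcripts) were 13 of 63 anti-Gr-1 members and 40 of 99 isotype members (20.6% and 40.4%), and the T cells of the same libraries split alike, at 19.0% and 36.8%.

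The label was set beside 30 genes known from mature dendritic cells, none of them used for selection. This list was written with earlier results of these data known, and the type 2 and type 1 cells lacked Ccr7 and Fscn1 by rule. The values therefore describe the members and are no independent check of the label. Their summed level was 25165 CPM in anti-Gr-1 members and 22189 CPM in isotype members. In type 2 dendritic cells, which lacked Ccr7 and Fscn1 and carried Cd209a, the same sum was 3954 CPM in the anti-Gr-1 and 4415 CPM in the isotype library, and in type 1 cells with Xcr1 or Clec9a it was 2081 and 2451 CPM. Markers of other leukocytes were also summed. The neutrophil list summed to 0 CPM in anti-Gr-1 members and 6.39 CPM in isotype members, the T cell list to 82.7 and 143 CPM, and the B cell list to 40.9 and 66.7 CPM, with Ms4a1 and Pax5 at 0 in both. The mast cell and basophil list summed to 63.6 CPM in anti-Gr-1 members and 1391 CPM in isotype members, and 1 isotype barcode of 37306 UMIs held 1434 mast cell gene UMIs. The macrophage list stood at 440 and 915 CPM, the monocyte list at 659 and 912 CPM, and the NK and innate lymphoid list at 353 and 375 CPM, with a UMI of the last in 58 of 63 anti-Gr-1 and 83 of 99 isotype members and Ncr1 at 0 in both. The type 2 dendritic list summed to 1133 CPM in anti-Gr-1 and 1814 CPM in isotype members, against 6648 and 6766 CPM in type 2 cells. Members thus carried the maturation genes as a group in both libraries. Besides the barcode with a mast cell profile, an isotype member held 47 UMIs of C1qa, C1qb and C1qc.

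Set against type 2 and type 1 dendritic cells of the same library, mature cells differed widely. A gene was counted when log2(CPM + 5) differed at least 4-fold in all 4 comparisons (each library against each type), which 144 of the 12131 genes measured did upward (1.19%) and 17 downward (0.14%). At 2-fold, 476 genes were higher (3.92%) and 241 lower (1.99%). Of the 30 mature dendritic cell genes, 25 were at least 2-fold higher and none lower, with a median log2 difference of 3.62 over type 2 and 3.99 over type 1 cells, against medians of -0.15 and -0.07 over all genes. These contrasts lie between groups chosen by transcripts, so the values describe the cells and carry no test.

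Apol7c, an apolipoprotein L family gene, separated the groups most, with a log2 difference of 7.18 in the closest of the 4 comparisons. It measured 1008 CPM in anti-Gr-1 and 1217 CPM in isotype mature cells, against 0.539 and 1.70 CPM in type 2 cells and 1.97 and 0.618 CPM in type 1 cells. Cacnb3, a beta subunit of voltage-gated calcium channels, measured 613 CPM in anti-Gr-1 and 549 CPM in isotype mature cells. In type 2 cells Cacnb3 was at 1.08 and 1.32 CPM and in type 1 cells at 1.43 and 2.47 CPM. It was detected in 60 of 63 anti-Gr-1 members (95.2%) and 77 of 99 isotype members (77.8%). In T cells, which have median depths of 6898 UMIs (anti-Gr-1) and 5028 UMIs (isotype), the detected shares were 0.996% and 0.897%. Both genes lie on chromosome 15 of mm10, Apol7c at chr15:77524852-77533316 on the minus strand and Cacnb3 at chr15:98630840-98644529 on the plus strand.

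The chemokine genes among the 20 highest were Ccl22 and Ccl5. Ccl22, a ligand of CCR4 that draws regulatory and other T cells, reached 3257 CPM in anti-Gr-1 and 2211 CPM in isotype mature cells, against 13.6 to 27.2 CPM in type 2 and type 1 cells of both libraries. Ccl5, an inflammatory chemokine gene, measured 1328 CPM in anti-Gr-1 and 667 CPM in isotype mature cells and at most 13.3 CPM in the other dendritic cells. A cytokine gene also stood among them. Il12b, the p40 subunit shared by interleukin-12 and interleukin-23, measured 249 and 231 CPM in mature cells, had no UMI in type 2 cells and stayed below 0.4 CPM in type 1 cells. Its partner Il12a had no UMI in either library's members, where 3 UMIs would be 2.73 CPM (anti-Gr-1) and 2.74 CPM (isotype), and Il23a had 0 and 3 UMIs. By list, 3 of 13 chemokine genes (the third being Ccl17) and 2 of 14 cytokine genes (Il12b and the interleukin-15 receptor gene Il15ra) were at least 2-fold higher in all 4 comparisons.

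H2-M2, a non-classical class I heavy chain gene, measured 1323 CPM in anti-Gr-1 and 1426 CPM in isotype mature cells, against 16.5 and 15.7 CPM in type 2 cells. Il4i1, a secreted oxidase that breaks down phenylalanine, measured 888 and 871 CPM in mature cells, against 12.4 and 14.2 CPM in type 2 cells. Cd63, a tetraspanin of late endosomes, measured 689 and 540 CPM, against 9.39 and 13.6 CPM in type 2 cells. Mfge8, which bridges dying cells to phagocytes, measured 572 CPM in anti-Gr-1 and 643 CPM in isotype mature cells, against 10.4 to 22.2 CPM in type 2 and type 1 cells. The others of the 20 were Anxa3 (an annexin), Eno3 (an enolase), Socs2 (a suppressor of cytokine signalling), H2-Eb2, Serpinb6b, Mreg, Lad1, Nudt17, Ankrd33b, Slco5a1 and Tcaf2, the last with the smallest closest difference of the 20 at 4.16. Serpinb6b, a serine protease inhibitor gene, measured 718 CPM in anti-Gr-1 and 440 CPM in isotype mature cells, and Socs2 262 and 222 CPM.

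Part of this pattern was shared with Langerhans cells of the same libraries, taken as barcodes with Cd207 and Epcam. H2-M2 stood at 1354 CPM in anti-Gr-1 and 1488 CPM in isotype Langerhans cells, near its level in mature cells. Mfge8 was higher there, at 1603 and 2027 CPM, and Cd63 lower, at 297 and 301 CPM. Tbc1d4, a Rab GTPase-activating protein, measured 2119 and 1728 CPM in mature cells and 1868 and 1502 CPM in Langerhans cells. Apol7c, by contrast, was at 1.48 CPM in anti-Gr-1 and 27.8 CPM in isotype Langerhans cells, and Il4i1 at 1.48 and 18.5 CPM.

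**Figure D1:**
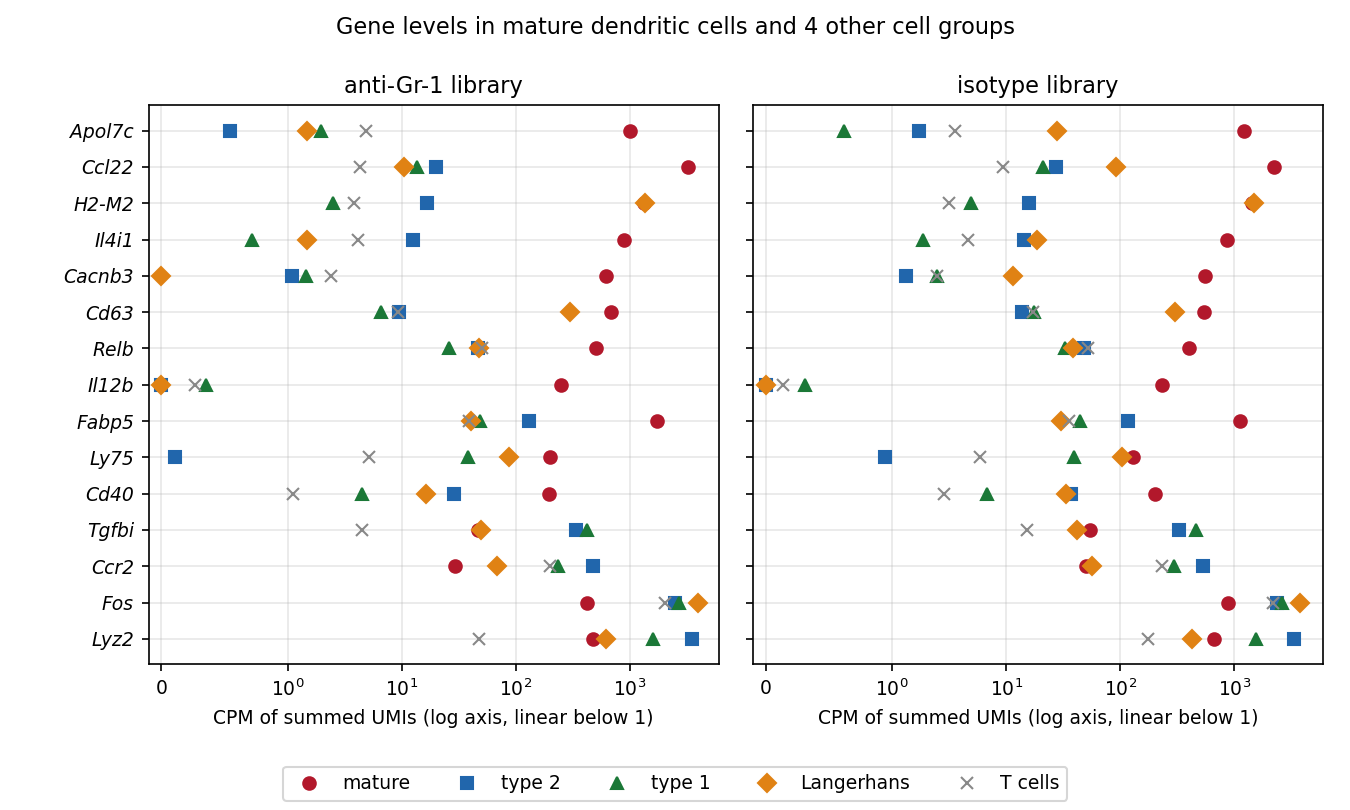
Levels of 15 genes in CPM (symmetric log axis) in mature, type 2, type 1 and Langerhans dendritic cells and in T cells, with the anti-Gr-1 library left of the isotype library. Apol7c, Ccl22, Il4i1, Cacnb3 and Il12b were higher in mature cells of both libraries than in every other group shown, H2-M2 was as high in Langerhans cells, and Tgfbi, Ccr2, Fos and Lyz2 were lower in mature than in type 2 and type 1 cells.

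NF-kB is the transcription factor family that drives dendritic cell maturation, and 10 of its 22 listed genes were at least 2-fold higher in mature cells, with none lower. The median of the list was 0.70 over type 2 and 2.07 over type 1 cells. Relb, the subunit of the alternative pathway, measured 501 CPM in anti-Gr-1 and 398 CPM in isotype mature cells, against 46.3 and 47.7 CPM in type 2 cells. Birc2, an inhibitor of apoptosis in the same pathway, measured 267 and 238 CPM in mature cells, against 20.7 and 22.5 CPM in type 2 cells. Map3k14, its inducing kinase, measured 205 and 225 CPM, against 41.8 and 43.0 CPM in type 2 cells. Rel, a subunit of the classical pathway, was abundant in all of them, at 1363 and 1420 CPM in mature cells, 602 and 666 CPM in type 2 cells and 203 and 218 CPM in type 1 cells. The remaining 6 were Cflar, Traf1, Nfkbib, Tnip1, Tnfaip2 and Nfkb2.

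The general NF-kB binding motif, called the general kB site, was looked for on both strands of RefSeq promoter windows (GRCm38.p6, 250 bases before to 50 bases after each start). Of the 144 genes at least 4-fold higher, 113 had a window and 21 of these held the motif (18.6%), against 593 of 9454 tested genes with a window (6.27%) and 1388 of all 27025 genes (5.14%). Among the 20 highest genes 1 of 16 with a window held it (6.25%), among the 17 lower genes 1 of 13 (7.69%), among the mature dendritic cell list 1 of 23 (4.35%), and among the NF-kB genes 9 of 19 (47.4%). The interferon-type element TTTC, 2 bases of any kind and TTTC again, searched the same way, was in 6 of the 113 windows' genes (5.31%) and in 384 of 9454 tested genes (4.06%). Shown here are the windows of H2-M2, the only motif-bearing gene of the 20 highest, of H2-Q7, a class I gene, and of Tnfrsf9, a T cell co-stimulation gene, all written along the gene's strand with the matching stretches in capitals:
H2-M2: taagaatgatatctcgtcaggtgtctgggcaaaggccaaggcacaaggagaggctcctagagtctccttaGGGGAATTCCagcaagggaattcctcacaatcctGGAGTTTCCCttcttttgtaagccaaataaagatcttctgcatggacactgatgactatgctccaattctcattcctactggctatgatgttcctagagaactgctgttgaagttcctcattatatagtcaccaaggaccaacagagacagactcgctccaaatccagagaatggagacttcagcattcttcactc
H2-Q7: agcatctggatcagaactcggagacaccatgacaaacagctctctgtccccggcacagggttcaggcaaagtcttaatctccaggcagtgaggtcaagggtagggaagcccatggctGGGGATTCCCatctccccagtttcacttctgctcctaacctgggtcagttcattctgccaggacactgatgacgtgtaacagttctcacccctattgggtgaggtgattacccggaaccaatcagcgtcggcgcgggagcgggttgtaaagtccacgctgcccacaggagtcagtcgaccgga
Tnfrsf9: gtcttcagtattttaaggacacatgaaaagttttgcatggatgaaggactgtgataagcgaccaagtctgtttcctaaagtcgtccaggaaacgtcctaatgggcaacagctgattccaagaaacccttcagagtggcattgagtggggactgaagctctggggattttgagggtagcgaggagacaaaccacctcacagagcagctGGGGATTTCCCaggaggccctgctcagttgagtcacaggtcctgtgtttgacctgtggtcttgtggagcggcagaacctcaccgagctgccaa

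The H2-M2 window is chr17:37483505-37483804 on the minus strand, and its stretches GGGGAATTCC and GGAGTTTCCC begin 180 and 146 bases before the start. That of H2-Q7 is chr17:35438905-35439204 on the plus strand, with GGGGATTCCC 133 bases before the start. That of Tnfrsf9 is chr4:150927749-150928048 on the plus strand, with GGGGATTTCCC, formed by overlapping matches, 43 bases before the start. A second Tnfrsf9 window, chr4:150919905-150920204, held no match. A match of letters is a description of the window and does not show binding.

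The co-stimulation list had 6 of 13 genes at least 2-fold higher and none lower. Cd40, the receptor for CD40 ligand on helper T cells, measured 194 CPM in anti-Gr-1 and 202 CPM in isotype mature cells, against 28.5 and 36.7 CPM in type 2 cells and 4.47 and 6.79 CPM in type 1 cells. Tnfrsf9 (4-1BB) measured 77.2 and 63.0 CPM, against at most 3.31 CPM in type 2 and type 1 cells. The others were Slamf1, Tnfrsf4, Icosl and Cd200. Cd83 and the B7 gene Cd86 were not among them. Cd83, a maturation marker, measured 1274 CPM in anti-Gr-1 and 1457 CPM in isotype mature cells, against 841 and 897 CPM in type 2 cells, and Cd86 measured 184 and 164 CPM, against 127 and 137 CPM in type 2 cells.

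Of 21 regulatory genes, 8 were at least 2-fold higher and 1, Vsir, lower. Cd274, which encodes PD-L1, measured 200 CPM in anti-Gr-1 and 223 CPM in isotype mature cells, against 34.0 and 47.2 CPM in type 2 cells and 3.04 and 4.63 CPM in type 1 cells. The others were Nectin2, Il4i1, Aldh1a2, Socs1, Socs2, Cd200 and Fas. Aldh1a2, which makes retinoic acid, was sparse at 30.9 and 38.4 CPM. Ido1, a tryptophan-degrading enzyme, had no UMI in members of either library, and Il10 had 0 and 1 UMI.

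Of 15 class I presentation genes, 4 were at least 2-fold higher and none lower: Nlrc5, the class I transactivator, the proteasome activator subunit Psme2, and the heavy chains H2-K1 and H2-Q7. H2-K1 measured 1481 CPM in anti-Gr-1 and 1478 CPM in isotype mature cells, against 683 and 727 CPM in type 2 cells and 316 and 394 CPM in type 1 cells. H2-Q7 measured 264 and 269 CPM, against 39.7 and 42.3 CPM in type 2 cells, and is uncertain because the H2-Q genes are near-identical copies. The class I list had a median of 1.13 over type 2 and 0.44 over type 1 cells. Of 13 class II processing genes none was higher and 3 were lower in all 4 comparisons, with medians of -0.13 over type 2 and 0.80 over type 1 cells. H2-DMa, a subunit of the peptide-loading chaperone, measured 312 CPM in anti-Gr-1 and 466 CPM in isotype mature cells, against 1139 and 1153 CPM in type 2 cells and 1185 and 1130 CPM in type 1 cells. Its partner H2-DMb1 measured 221 and 297 CPM, against 836 and 810 CPM in type 2 cells, and March1, a ligase that turns class II over, was the third lower gene.

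The 13 type 2 lineage genes and the 13 type 1 lineage genes each had 2 members lower and none higher, namely Klf4 and Cd300c2, and Naaa and Rab7b. The type 2 list had a median of -2.27 over type 2 cells and the type 1 list one of -3.20 over type 1 cells. Naaa, a lipid amidase of type 1 cells, measured 118 CPM in anti-Gr-1 and 130 CPM in isotype mature cells, against 1442 and 1624 CPM in type 1 cells. Irf8, the type 1 lineage factor, stood between the lineages at 255 and 227 CPM in mature cells, 9.82 and 16.0 CPM in type 2 cells and 1649 and 1827 CPM in type 1 cells. Of 12 monocyte genes 3 were lower: Ccr2, the receptor for monocyte attraction, Lyz2 (lysozyme) and F13a1. Ccr2 measured 29.1 CPM in anti-Gr-1 and 50.2 CPM in isotype mature cells, against 479 and 528 CPM in type 2 cells and 232 and 294 CPM in type 1 cells. Tgfbi, a matrix protein gene, ranked lowest by the closest of its 4 differences, at 46.3 and 53.9 CPM in mature cells, against 326 to 466 CPM in the other dendritic cells. The 10 lowest were Tgfbi, Ccr2, Tm6sf1, Olfm1, Klf4, Arhgap15, Lmo1, P2ry6, Pld4 and Klrb1b.

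Of 23 uptake and pattern recognition genes 1 was at least 2-fold higher and none lower in all 4 comparisons, with medians of -0.79 over type 2 and 0.02 over type 1 cells. The higher one was Ly75 (DEC-205), an antigen uptake receptor, at 199 CPM in anti-Gr-1 and 130 CPM in isotype mature cells, against 0.108 and 0.946 CPM in type 2 cells and 37.7 and 38.9 CPM in type 1 cells. The homing and cytoskeleton list had 4 of 23 genes higher and 2 lower, with Marcks, an actin-binding membrane protein, at 2134 and 2276 CPM in mature cells, against 984 and 1100 CPM in type 2 cells. In the cholesterol and lipid list 6 of 15 were higher, namely Apol7c, Fabp5, Fdps, Idi1, Hmgcs1 and Sqle, the last 4 being enzymes of sterol synthesis. Fabp5, a fatty acid binding protein, measured 1745 CPM in anti-Gr-1 and 1114 CPM in isotype mature cells, against 130 and 117 CPM in type 2 cells, with 52.9% and 55.3% of its UMIs in 5 cells. Survival genes were higher for 3 of 10, Bcl2l14, Bcl2a1b and Bcl2a1d, the Bcl2a1 genes being near-identical copies and therefore uncertain.

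Immediate early and heat shock genes, which respond within minutes to stimuli that include tissue digestion, had none of 19 higher and 2 lower, with medians of -1.34 over type 2 and -0.94 over type 1 cells. Fos measured 418 CPM in anti-Gr-1 and 879 CPM in isotype mature cells, against 2491 and 2383 CPM in type 2 cells and 2682 and 2642 CPM in type 1 cells. Fosb was the other lower gene.

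The members varied among themselves. Per 10000 UMIs of a cell, Cacnb3 had a median of 6.43 in anti-Gr-1 members (quartiles 3.70 and 9.07) and 7.11 in isotype members (2.20 and 9.50), and 5 cells held 18.2% and 14.8% of its UMIs. Several chemokine and cytokine genes were more concentrated. The top 5 cells held 83.7% of Ccl17 UMIs in anti-Gr-1 members and 76.9% in isotype members, 74.8% and 73.6% of Ccl5, 76.3% and 55.7% of Il12b, and 71.1% and 38.3% of Il1b. The share was lower for Ccl22, at 40.3% and 26.0%, and for Il4i1, at 23.1% and 14.99%. Il12b was detected in 21 of 63 anti-Gr-1 members (33.3%) and 19 of 99 isotype members (19.2%), against 0.0766% and 0.0464% of the shallower T cells. At 5 or more UMIs, Il12b and Ccl5 were found together in 4 anti-Gr-1 cells and apart in 5 (Il12b) and 15 (Ccl5), and in the isotype library together in 9 and apart in 6 and 9. Every cell with 5 Ccl17 UMIs also had 5 Ccl22 UMIs, 10 in the anti-Gr-1 and 4 in the isotype library. These genes lie near each other, Ccl22 at chr8:94745590-94751699 and Ccl17 at chr8:94810453-94812036 of mm10, both on the plus strand.

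**Figure D2:**
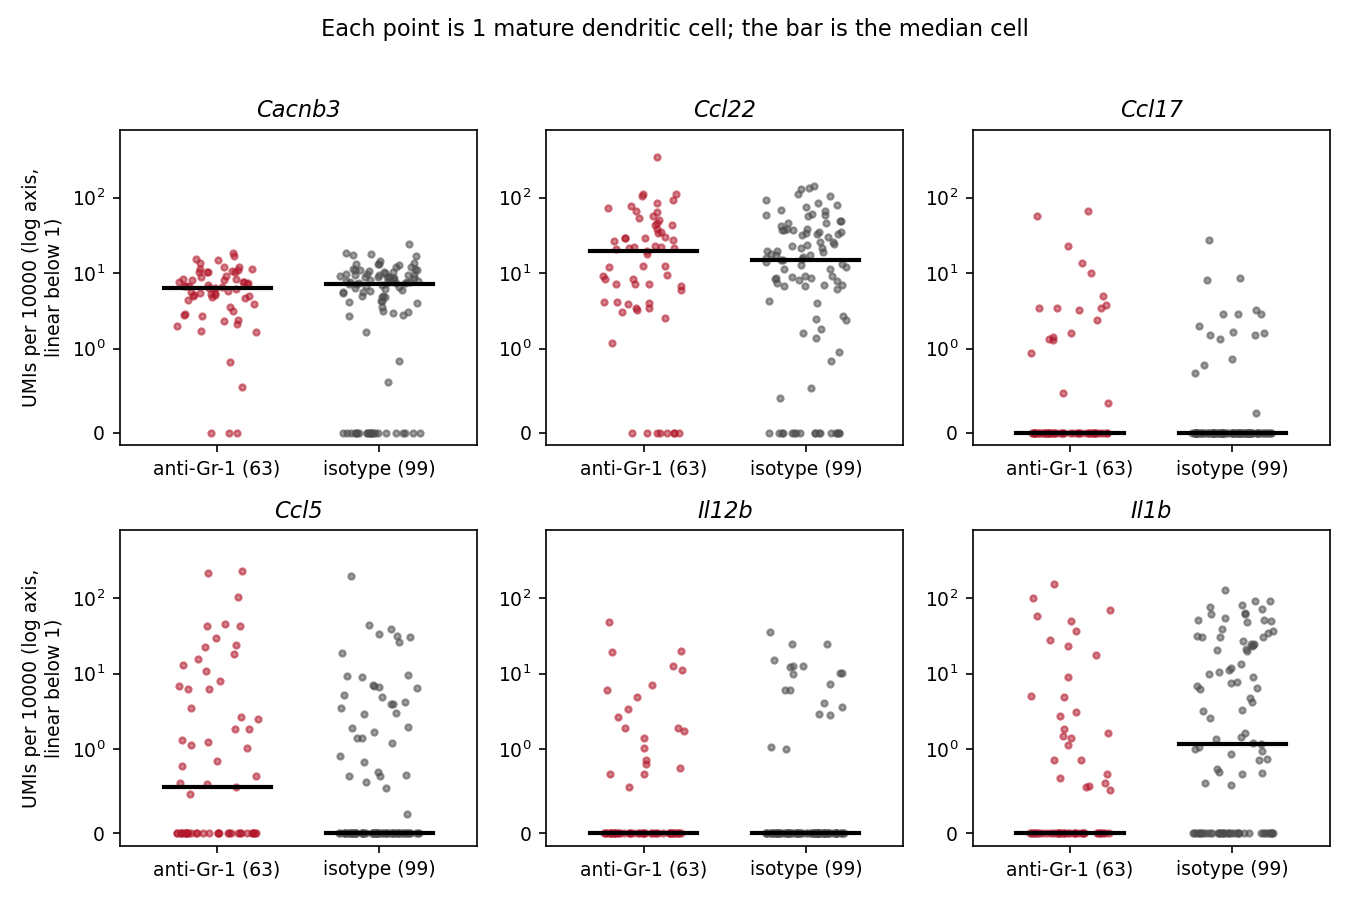
UMIs per 10000 for 6 genes in each of the 63 anti-Gr-1 and 99 isotype members, 1 point per cell, with a bar at the median cell. Cacnb3 was spread over most members of both libraries, whereas Ccl17 and Il12b were detected in a minority of members of both libraries and Ccl5 and Il1b had most of their high values in some of the cells.

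A group of members held more type 2 transcripts and had lower levels of Cacnb3, Ccl22 and several other maturation genes. Members with at least 10 UMIs of Cd209a, Mgl2 and Clec10a together, a split chosen after their values were seen, numbered 9 of 63 (14.3%) in the anti-Gr-1 and 21 of 99 (21.2%) in the isotype library. Their Cacnb3 level was 233 CPM in the anti-Gr-1 and 82.0 CPM in the isotype library, against 705 and 783 CPM in the other members, and 2 and 16 of them had no Cacnb3 UMI. Ccl22 measured 1615 and 273 CPM in them, against 3653 and 3183 CPM in the other members. Tbc1d4 was also lower in both libraries, at 733 and 394 CPM in them, against 2454 and 2398 CPM in the other members. So were Cd63 (261 and 148 CPM, against 792 and 737 CPM) and Relb (238 and 148 CPM, against 565 and 524 CPM). Il4i1 (467 and 309 CPM, against 990 and 1154 CPM) and Serpinb6b (345 and 76.5 CPM, against 808 and 623 CPM) were lower too. Cd83 differed less, at 994 and 1386 CPM in them, against 1341 and 1493 CPM in the other members. Apol7c measured 798 and 219 CPM in them, against 1059 and 1718 CPM in the other members, and Samsn1, an adaptor gene, 1456 and 1164 CPM, against 1778 and 2243 CPM. Etv3, a transcriptional repressor gene, was as high in them, at 1013 and 1203 CPM, against 988 and 1065 CPM. Il1b, which encodes interleukin-1 beta, went the other way, at 3043 CPM (anti-Gr-1) and 4800 CPM (isotype) in them, against 468 and 531 CPM in the other members. Ccr7 stood at 919 and 877 CPM in them, against 2929 and 3318 CPM in the other members. Fscn1 stood at 1521 and 514 CPM, against 2427 and 2850 CPM. Among the 9 anti-Gr-1 and 21 isotype cells, 4 and 17 lacked Apol7c, 5 and 17 Zmynd15 and 3 and 15 Serpinb6b. These cells met the rule for mature cells, but 18 of the 30 lacked Cacnb3, so the name mature is least certain for them. Without them the count of genes at least 4-fold higher than in other dendritic cells was 195, with all 144 among them, and that of lower genes 82.

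**Figure D3:**
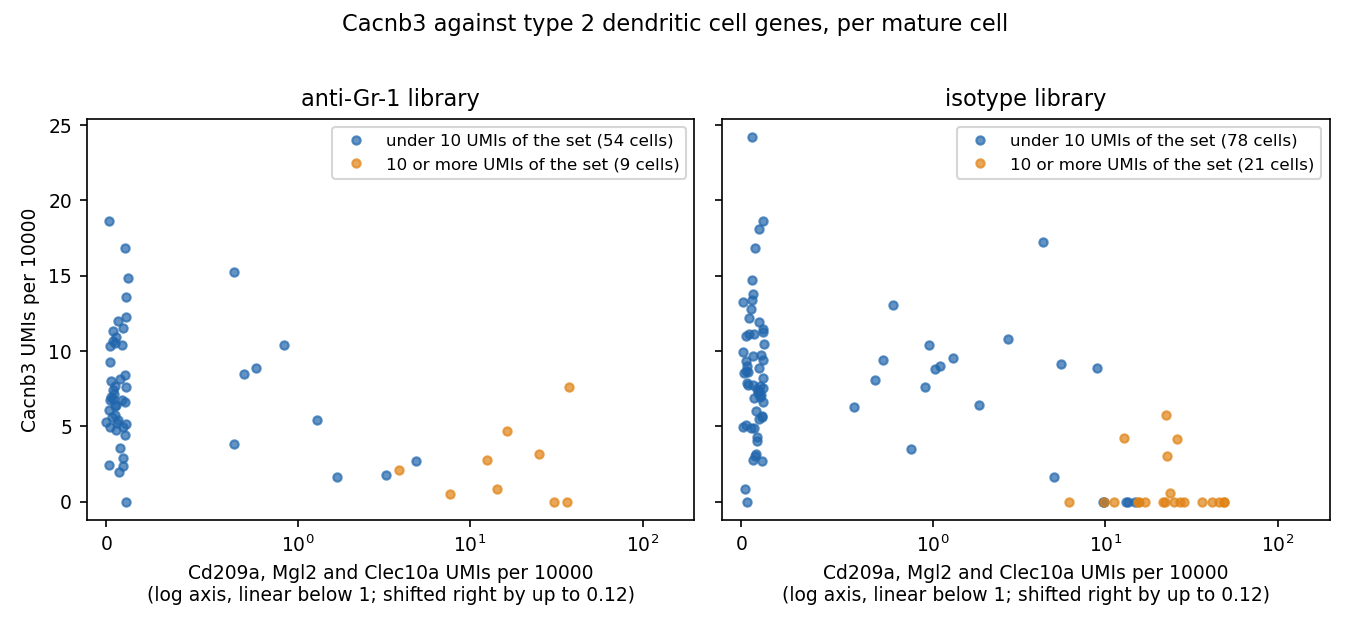
Cacnb3 against the sum of Cd209a, Mgl2 and Clec10a in UMIs per 10000 for every member, with the anti-Gr-1 library on the left and the isotype library on the right and points moved right at random by a small amount. The cells with 10 or more UMIs of the 3 type 2 genes, 9 anti-Gr-1 and 21 isotype, lay mostly low on Cacnb3.

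The members also differed in transcripts of lineage genes. Some of these marks rest on 1 UMI, and where the transcripts came from was not tested. These splits were also chosen after values were seen. Members with both Cd207 and Epcam, no UMI of Cd209a, Mgl2 or Clec10a and at most 1 of 6 type 1 genes (Xcr1, Clec9a, Naaa, Cadm1, Wdfy4 and Rab7b) numbered 12 in each library, with Apol7c at 1535 CPM (anti-Gr-1) and 2758 CPM (isotype), Mfge8 at 1844 and 1144 CPM and Il1b at 11.7 and 125 CPM. Their Cacnb3, at 811 and 878 CPM, was near that of the 25 anti-Gr-1 and 40 isotype members that met none of the markings given here, at 750 and 786 CPM. These unmarked members could still hold 1 UMI of the type 1 genes, or Cd207 or Epcam alone. The unmarked members had Ccl22 at 4891 CPM in the anti-Gr-1 and 3233 CPM in the isotype library. Members with at least 2 UMIs of the type 1 genes and none of the type 2 genes numbered 8 and 5, and held Ccl17 at 1652 CPM in the anti-Gr-1 and 12.1 CPM in the isotype library. Members with type 2 genes and at most 1 UMI of the type 1 genes numbered 5 and 15, none of them in the group with at least 10 type 2 UMIs, and had Cacnb3 at 744 CPM in the anti-Gr-1 and 815 CPM in the isotype library. Members with both type 1 and type 2 transcripts numbered 13 and 27, which took in all 9 and 21 members rich in type 2 genes, and had Cacnb3 at 301 and 111 CPM. With so few cells these values describe single cells more than classes.

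Between the libraries, 69 of the 6969 genes measured in members were at least 2-fold higher in the anti-Gr-1 library (0.99%) and 187 at least 2-fold lower (2.68%), on the log2(CPM + 5) scale. The median log2 ratio of all genes was -0.09. Most maturation genes lay within 2-fold. Of 30 mature dendritic cell genes, 2 (Eno2 and Ccl17) were 2-fold higher and none lower, with a median of 0.23. The counting interval of the ratio lay above 1 for 15 of the 30 and below 1 for 5. Over all 6969 genes measured it lay above 1 for 401 and below 1 for 807. Cacnb3 had a log2 ratio of 0.16, Il12b 0.10 and Apol7c -0.27. Without the members rich in type 2 genes the median of the list was -0.04.

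Chemokine genes differed in both directions. Ccl17, a CCR4 ligand, measured 341 CPM in anti-Gr-1 and 71.3 CPM in isotype members, a ratio of 4.78 (3.74 to 6.18), in 19 and 17 cells. It was detected in 30.2% of anti-Gr-1 members and 17.2% of isotype members, against 0.766% and 0.959% of the shallower T cells, and 1 cell held 32.5% and 48.7% of its UMIs. Its log2 ratio was 2.18, but 0.47 among female cells. It was 0.77 once barcodes with the highest scores of scrublet, a doublet caller, were removed, among them 10 anti-Gr-1 and 2 isotype members. Ccl22 had a ratio of 1.47 (1.40 to 1.55), which was 1.15 without the members rich in type 2 genes and -0.16 on the log2 scale among female cells. Ccl5 had a ratio of 1.99 (1.82 to 2.18), with log2 ratios of -1.11 among female and 2.80 among male cells.

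In the other direction, 5 of 12 chemokine genes were at least 2-fold lower in the anti-Gr-1 library: Cxcl2, Ccl3, Ccl4, Cxcl9 and Cxcl10. Cxcl2, which attracts neutrophils, measured 19.1 CPM in anti-Gr-1 and 242 CPM in isotype members, a ratio of 0.0788 (0.0480 to 0.123). Ccl4, another inflammatory chemokine gene, measured 44.5 and 389 CPM, a ratio of 0.114 (0.0833 to 0.154). Without the members rich in type 2 genes Ccl4 measured 31.6 and 75.5 CPM and Cxcl2 21.4 and 158 CPM. Cxcl9 and Cxcl10, chemokines for CXCR3, came from few cells, with 97.6% of the isotype Cxcl9 UMIs in 1 barcode and 65.4% of the Cxcl10 UMIs in 1 barcode.

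Il1b measured 969 CPM in anti-Gr-1 and 1958 CPM in isotype members, a ratio of 0.495 (0.460 to 0.533). It was detected in 42.9% of anti-Gr-1 and 62.6% of isotype members, against 12.7% and 21.5% of T cells. Without the members rich in type 2 genes Il1b measured 468 and 531 CPM, a ratio of 0.882 (0.766 to 1.02). Those members numbered 9 and 21 and also differed in level, at 3043 CPM in the anti-Gr-1 and 4800 CPM in the isotype library, and their part in the difference was not tested. Tnf, another inflammatory cytokine, measured 53.6 CPM in anti-Gr-1 and 132 CPM in isotype members, and 60.9 and 162 CPM without them. Tnfsf9, the ligand of 4-1BB, measured 213 and 504 CPM, with a log2 ratio of -1.23 that was -0.08 without them.

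The uptake and pattern recognition list had 5 of 13 genes lower, namely Cd209a, Cd209d, Mgl2, Clec10a and Cd14, and 1, Clec12a, higher, with a median of -0.92. Some of these genes defined the members rich in type 2 genes. Without those members 7 genes of the list were measured, with a median of 0.005, 1 higher and none lower. In type 2 and type 1 cells the median of the list was 0.03 and -0.27. The macrophage list had 4 of 9 lower, C1qa, C1qb, Apoe and Timd4, also with a median of -0.92. Its median was -0.36 in type 2 cells and -0.94 in type 1 cells, where 4 of 9 were lower as well. Without the members rich in type 2 genes only 3 of these genes were measured, with a median of -0.44 and none past 2-fold. Of 15 class I presentation genes none passed 2-fold, with a median of 0.15, and of 22 NF-kB genes 1, Nfkbiz, was lower, with a median of -0.12.

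Immediate early and heat shock genes were lower as a list in anti-Gr-1 members, with 5 of 19 past 2-fold (Jun, Egr1, Egr2, Fos and Nr4a1), none higher, and a median of -0.55. All 19 had a ratio below 1, against the all-gene median of -0.09. Fos had a ratio of 0.475 (0.425 to 0.532), and Jun measured 183 CPM in anti-Gr-1 and 476 CPM in isotype members. The median of the list was -0.57 without the members rich in type 2 genes, -0.93 among female and -0.25 among male cells, and 0.03 in type 2 and -0.20 in type 1 cells.

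**Figure D4:**
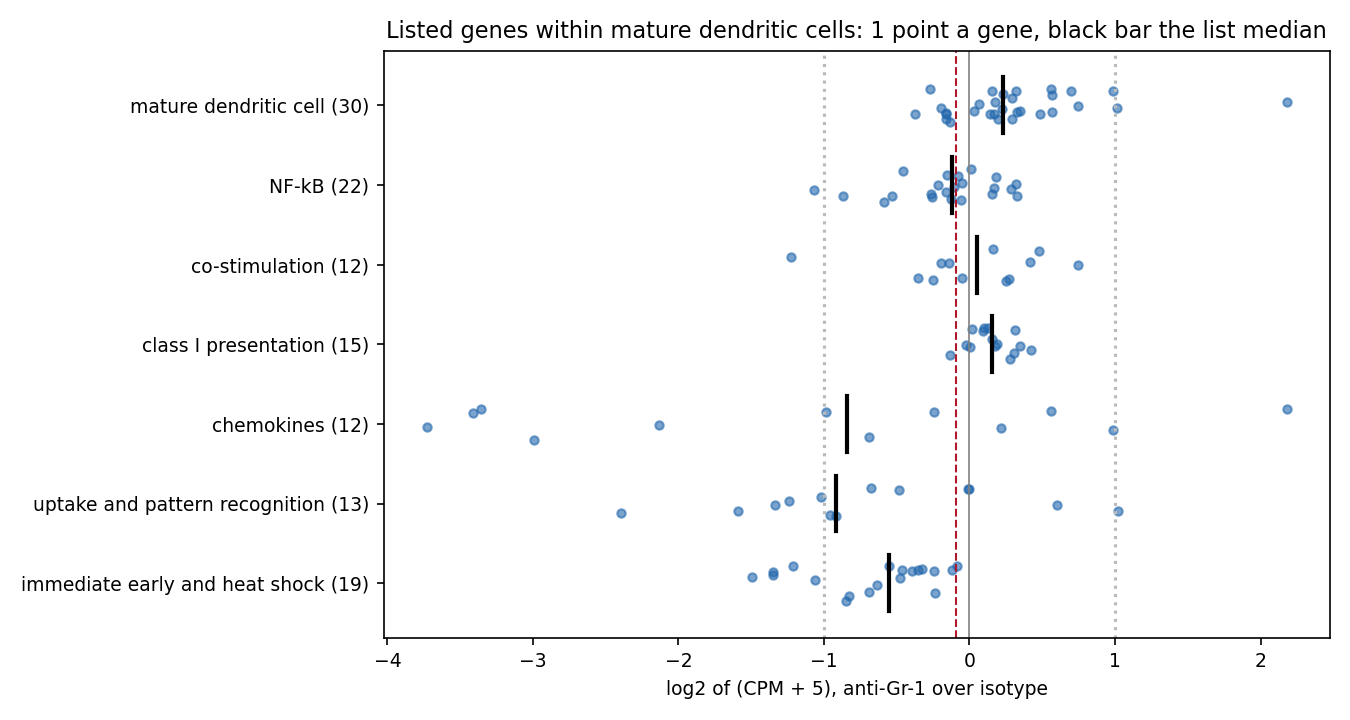
Log2 ratio of anti-Gr-1 over isotype on the CPM + 5 scale for each measured gene of 7 lists in mature dendritic cells, with a black bar at the list median, a red dashed line at the all-gene median of -0.09 and dotted lines at 2-fold. The mature dendritic cell list had its median at 0.23, whereas the immediate early and heat shock list lay below 0 throughout.

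The 12 genes with the highest ratios were Serpinb9b, Ccl17, Hist1h2ap, Hist1h1b, Mndal, Pkib, Gnb4, Fxyd2, Pcmtd1, Ear2, AY036118 and Tmco3. Serpinb9b, a serine protease inhibitor gene, had 62 UMIs in 10 anti-Gr-1 members and 4 UMIs in 2 isotype members, a ratio of 15.4 (5.73 to 58.3). Fxyd2, a regulator of the sodium pump, measured 413 CPM in anti-Gr-1 and 190 CPM in isotype members, a ratio of 2.18 (1.84 to 2.58). It was detected in 74.6% and 46.5% of members, against 0.741% and 1.10% of T cells, and its log2 ratio was -1.63 among female cells. The histone genes had 93.3% (Hist1h2ap) and 93.2% (Hist1h1b) of their anti-Gr-1 UMIs in 1 cell. AY036118, a ribosomal-repeat transcript, measured 793 and 393 CPM in mature cells and was also higher in anti-Gr-1 cells of the other types, at 755 and 388 CPM in type 2 cells. The 12 lowest were Mcpt4, Cma1, Tpsb2, Cpa3, Cxcl10, Fcgbp, Cxcl9, Cxcl2, Alox12e, Ccl4, Ccl7 and Krt79. The first 4 are mast cell protease genes, and Mcpt4 measured 17.3 CPM in anti-Gr-1 and 620 CPM in isotype members with 95.3% of the isotype UMIs in 1 barcode.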

How the data were processed

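Both libraries were made with the Chromium Single Cell 3′ v2 chemistry and antibody-derived tags, which were not used here, per the labels' protocols. The deposited matrices hold whole-number UMI counts for 32285 genes. Per the file headers they came from Cell Ranger 4.0.0, and the submitters' processing notes name mm10 as the genome. The cell filter applied before deposit is not given in the sources used here.

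Barcodes with at least 200 genes and under 10% mitochondrial UMIs were kept, 8047 of 9110 in the anti-Gr-1 and 19542 of 21311 in the isotype library, 52 of them with a sequence present in both. Members were selected by the transcript rule given above. Type 2, type 1 and Langerhans cells had the same class II share and no Cd3 or Ccr7 UMI. Type 2 cells also had no Fscn1, Xcr1, Clec9a or Cd207 UMI and at least 2 Cd209a UMIs. Their share of C1qa, C1qb and C1qc UMIs was capped as well. Type 1 cells had at least 2 UMIs of Xcr1 and Clec9a together and no Cd209a or Fscn1 UMI. Langerhans cells had at least 2 Cd207 UMIs, Epcam and no Xcr1 or Clec9a UMI. T cells had at least 3 Cd3 UMIs and a class II share well below the limit for members. The genes of these rules were left out of the contrasts they entered. The members, gene lists and comparisons were chosen with earlier results of these data known.

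Each cell group's UMIs were added up per library and scaled to CPM. Genes with at least 20 UMIs were compared as log2(CPM + 5), a scale that understates the change of low genes. No test was made, since a condition was a single library. Ratios carry exact 95% conditional Poisson intervals and shares exact Clopper-Pearson intervals, and a count of 0 was set against a floor of 3 UMIs. Cells are not replicates and PCR or handling error is not covered. Levels rest on 1100872 UMIs (anti-Gr-1) and 1094699 UMIs (isotype) in members.

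Named genes were the 20 highest and 10 lowest against other dendritic cells and the 12 highest and 12 lowest between libraries with at least 50 UMIs and 50 CPM in 1 library, together with listed genes. Doublets were not removed in the main values. Scrublet (in scanpy 1.11.5) was an alternative, set to an expected rate of 6.44% (anti-Gr-1) and 15.6% (isotype). Other alternatives changed the pseudocount, the count filter, the depth by thinning to 2000 or 3000 UMIs, the rule's limits, the weight per cell and the cells included. Promoter windows came from RefSeq tables of GRCm38.p6, matched by symbol. Scripts ran in Python 3.11.15 with numpy 2.4.6, scipy 1.17.1, pandas 2.3.3 and matplotlib 3.10.9, and were tested on simulated data. Listed genes absent from the files' names (Cd58, Clec7a, Cxx1b, Trgc1, Mx1 and Il36g) were not analysed here.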

Additional observations from a re-analysis of the deposited data

Results flagged for a closer look

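Barcodes with at least 1 Cd3 UMI that met the rest of the rule lay outside the comparisons above and also carried Cacnb3 and Ccl22. There were 27 of 90 in the anti-Gr-1 library (30.0%, exact binomial interval 20.8% to 40.6%) and 99 of 198 in the isotype library (50%, 42.8% to 57.2%). Cacnb3 measured 489 CPM in the anti-Gr-1 and 323 CPM in the isotype barcodes, and Ccl22 2202 and 1547 CPM. Both genes were lower than in members, which had Cacnb3 at 613 and 549 CPM and Ccl22 at 3257 and 2211 CPM. Mgl2 measured 366 and 632 CPM in these barcodes, and Il1b 2673 and 1880 CPM. Of these barcodes, 5 anti-Gr-1 and 35 isotype had 5 or more Cd3 UMIs, Trdc, a gamma-delta T cell receptor gene, measured 169 and 265 CPM, and 3 and 27 held both female and male transcripts. The cut on scrublet scores removed 7 and 24 of them.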

How the results depend on the processing

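No paired analysis was possible because each condition was 1 library. The share of members, with a ratio of 1.55, was 1.10 with no limit on Cd3 and 1.20 to 1.73 under the other alternatives, but 0.903 (0.647 to 1.25) as a share of mature, type 2 and type 1 cells. The type 1 part of that denominator itself had a ratio of 3.04 as a share of kept barcodes. The counts of genes 2-fold higher (69) and lower (187) in the anti-Gr-1 library were 122 and 360 with a pseudocount of 1 CPM, 26 and 117 with 10 CPM, 26 and 89 at 50 or more UMIs, and 130 and 323 with no filter. The pseudocounts left 6969 genes measured, while the count filters changed that number. Male cells gave 113 higher and 235 lower of 5556 genes measured. Female cells gave 99 and 265 of 3174, a larger share in both directions than in all members. Of the 187 lower genes, 64 were among the 130 lower of 5913 without the members rich in type 2 genes. With equal weight per cell, 109 were among the 233 lower of 6969. Against other dendritic cells the counts of 144 and 17 were 241 and 61 with a pseudocount of 1 CPM, 476 and 241 at 2-fold, and 267 and 151 against type 1 cells alone. The lower count was 99 against type 2 cells alone, 30 with equal weight per cell, 35 after scrublet and 82 without the members rich in type 2 genes. For single genes, 799 alternative values stayed within the counting interval of the reported value and 272 moved outside it. Sign changes of genes under 2-fold in the reported values, such as Ccl5 among female cells, fall within these counts. Another 20 values, all of genes at least 2-fold apart in the reported values, changed sign, and the cause was not tested. These log2 ratios were, after scrublet, Hist1h2ap -1.38, Hist1h1b -0.67 and Mndal -0.17; among female cells, Hist1h2ap -2.54, Fxyd2 -1.63, Cpa3 0.38, Alox12e 3.49, Ccl7 1.61, Krt79 2.35, Tnfsf9 0.052, Apoe 0.65 and Egr1 0.032. Among male cells Tpsb2 was 0.19 and Il1rn 0.14. Without the top member of each gene Hist1h2ap was -0.77 and Cxcl9 0.29. Without the members with mast cell genes or over 40000 UMIs, Cxcl9 was 0.55, Alox12e 1.53 and Krt79 0.33. Without the members rich in type 2 genes Cd209d was 0.13. All alternatives were set with earlier results of these data known. The top-member, mast cell gene and type 2 gene alternatives, and the depth limits without thinning, were added after the values here were seen. Depth limits genes below about 2.73 CPM (anti-Gr-1) or 2.74 CPM (isotype), and in cells the floor was 4.76% of anti-Gr-1 and 3.03% of isotype members.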
